A study of Mus musculus with 18 samples.

Results

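The genes examined here are 10 mammary secretory genes, out of 57126 genes counted in 18 mouse mammary tumors. They were taken by name and comprise the caseins Csn1s1, Csn1s2a, Csn2 and Csn3, the whey genes Wap and Lalba, and the secreted proteins Trf, Lcn2, Glycam1 and Ltf. All 10 were found in the count table under a single identifier each. The tumors arose in female F1 mice of BALB/c and C57BL6/J parentage after adenovirus carrying Cre recombinase (Ad-Cre) had been injected into the mammary gland. Recombination gave ductal epithelial cells with p53 R172H and no other p53 allele in 7 MaP R172H/- tumors, from 7 mice. It gave p53 R245W with no other allele in 5 MaP R245W/- tumors, from 5 mice, and loss of both Trp53 alleles in 6 MaP -/- tumors, from 4 mice. Cells outside the injected epithelium kept wild-type p53 and are part of each bulk sample. A Rosa26LSL-TdTomato/+ reporter was carried by 3 MaP R172H/- tumors (YZ2, YZ6 and YZ10) and by 3 MaP R245W/- tumors (JM1233, JM1564 and RM0014), and by no MaP -/- tumor. Mice were injected as young adults and killed when moribund, and the study lists the latency after injection for the mice. Latency was not used in a comparison here, and parity and lactation state were not given in the sources used here. The study classed the MaP R172H/- tumors as luminal B or HER2-enriched and the others as triple negative. The labels name JM779-T1 and JM836-T1, whereas the study's list of animals marks the T2 tumor of either mouse as sequenced. Total counts per tumor ran from 23113578 to 37365062. The MaP R172H/- libraries were read on an Illumina HiSeq and the others on an Illumina NovaSeq, so platform and genotype cannot be told apart for that group.

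Milk protein genes are the terminal products of the mammary alveolar cell. Prolactin binds its receptor Prlr, the kinase Jak2 phosphorylates Stat5a, and Stat5a together with Elf5, the transcription factor of alveolar progenitors, raises casein and whey gene transcription in pregnancy and lactation. Caseins form the calcium-carrying micelles of milk. Wap is the main whey protein of mouse milk, and Lalba encodes alpha-lactalbumin, the regulatory subunit of lactose synthase. Trf (transferrin) and Ltf (lactoferrin) bind iron, and Lcn2 (lipocalin 2) binds iron-loaded bacterial siderophores. Lcn2 and Ltf are made by inflamed or involuting mammary epithelium and are also stored in neutrophil granules. Glycam1 is a mucin-like protein of milk and also of the high endothelial venules of lymph nodes.

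The 4 caseins lie in 1 cluster on chromosome 5 (GRCm39), between 87814067 and 88080524. Csn1s1 (ENSMUSG00000070702.10) runs from 87814067 to 87830437 on the plus strand and Csn2 (ENSMUSG00000063157.10) from 87840483 to 87847489 on the minus strand. Csn1s2a (ENSMUSG00000061937.8) runs from 87922426 to 87936656 and Csn3 (ENSMUSG00000001622.16) from 88073438 to 88080524, both on the plus strand. Of the other genes, Wap (ENSMUSG00000000381.11) is on chromosome 11 from 6585482 to 6588637. Lalba (ENSMUSG00000022991.6) and Glycam1 (ENSMUSG00000022491.7) are on chromosome 15, from 98378281 to 98380602 and from 103471186 to 103473515. Trf (ENSMUSG00000032554.17) and Ltf (ENSMUSG00000032496.9) are on chromosome 9, from 103081200 to 103107814 and from 110848339 to 110871835. Lcn2 (ENSMUSG00000026822.15) is on chromosome 2 from 32274645 to 32278264. Long non-coding genes overlap Csn1s2a (Gm42794), Csn3 (1700066N21Rik) and Trf (Gm69171) on the opposite strand. The library kit kept strand, and the strand setting used in counting is not given in the sources used here.

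STAT factors such as Stat5a bind the palindromic letters TTCNNNGAA. RefSeq promoter windows (GRCm38.p6) were at hand for 8 of the 10 genes, all but Csn3 and Trf. The 250 bases before the RefSeq start held those letters, on either strand, in 3 of the 8 (Csn1s1, Csn2 and Glycam1), and in 2306 of 32851 windows of all genes (7.02%). These 3 windows are shown because they hold the match, 2 of them from caseins and the third from a milk gene of a different location. Capitals mark the match. They were placed on GRCm39 by exact match, at chr5:87813817-87814066 on the plus strand for Csn1s1, chr5:87847285-87847534 on the minus strand for Csn2, and chr15:103473509-103473758 on the minus strand for Glycam1. The RefSeq starts of Csn2 and Glycam1 lie inside the gene spans given above.
Csn1s1: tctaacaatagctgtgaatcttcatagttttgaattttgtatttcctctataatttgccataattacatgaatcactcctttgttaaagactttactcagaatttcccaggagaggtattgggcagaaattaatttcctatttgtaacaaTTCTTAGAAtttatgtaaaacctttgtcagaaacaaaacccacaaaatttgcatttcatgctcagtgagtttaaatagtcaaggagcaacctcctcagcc
Csn2: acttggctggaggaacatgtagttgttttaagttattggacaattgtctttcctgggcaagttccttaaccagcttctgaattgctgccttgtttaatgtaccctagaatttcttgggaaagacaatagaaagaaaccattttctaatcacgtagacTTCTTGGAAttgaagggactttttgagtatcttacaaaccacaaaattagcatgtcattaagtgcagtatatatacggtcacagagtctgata
Glycam1: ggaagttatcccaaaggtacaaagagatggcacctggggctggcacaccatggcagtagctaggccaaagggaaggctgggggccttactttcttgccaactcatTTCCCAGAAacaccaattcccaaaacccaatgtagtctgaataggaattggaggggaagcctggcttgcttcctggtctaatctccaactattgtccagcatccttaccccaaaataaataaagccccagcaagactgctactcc
The match begins 100 bases before the start in Csn1s1, 93 in Csn2 and 145 in Glycam1. The windows of Csn1s2a, Wap, Lalba, Lcn2 and Ltf held no match to these letters. Csn1s2a, without a match, ranked the tumors much like Csn2 (Spearman's rho 0.92), Csn1s1 (0.85) and Glycam1 (0.84). A match describes the sequence and was not linked to any binding measurement.

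Levels are given as CPM, the counts of a gene scaled to a library of fixed size, with library sizes set by edgeR's TMM method. Together the 10 genes took a median of 0.846% of all counts in a tumor, with a lowest share of 0.0544% in JM1126 and a highest of 2.38% in JM1133. Trf and Lcn2 supplied most of this, with a median of 89.5% of the counts of the 10 genes, and the lowest shares were 38.9% in YZ11 and 43.6% in JM663-T2. The 4 caseins held between 0.000482% of counts in YZ7 and 0.267% in YZ6. Per kilobase of transcript, the median level over 18 tumors was highest for Lcn2 (1417 CPM per kilobase) and Trf (1244), followed by Csn3 (157), Ltf (76.1) and Csn1s1 (34.4). Csn2 (5.15), Csn1s2a (3.36), Lalba (3.20), Wap (1.34) and Glycam1 (0.681) followed. Some neighbours in this order were distinct, since Trf exceeded Csn3 and Csn1s1 exceeded Csn2 in 18 of 18 tumors. Others were not, since Lcn2 exceeded Trf in 8 tumors, Csn2 exceeded Csn1s2a in 9, and Wap exceeded Glycam1 in 10.

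The tissue label was checked against epithelial markers before the comparisons. Epcam, an epithelial adhesion molecule, lay between 252 and 1220 CPM in 15 tumors and at 23.6 CPM in YZ7, 34.3 in JM1233 and 10.3 in JM779-T1. Krt8, a luminal keratin, was at 17.3, 212 and 25.3 CPM in those 3 tumors. No gene of a list of 15 luminal epithelial genes was at 0 counts in any tumor. The list's summed level was 357 CPM in YZ7, 521 in JM1233 and 183 in JM779-T1, against at least 1683 in each of the others, and its most abundant gene was Krt18 in 12 tumors. Each group holds 1 of these 3 tumors. They were not alike in basal genes, since a list of 9 basal epithelial genes summed to 2267 CPM in YZ7, with Acta2 most abundant and Krt5 at 33.1 CPM, against 585 in JM1233, where Krt5 was at 0 counts, and 58.0 in JM779-T1. In bulk samples, fewer secretory cells and less RNA per cell cannot be told apart.

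**Figure D1:**
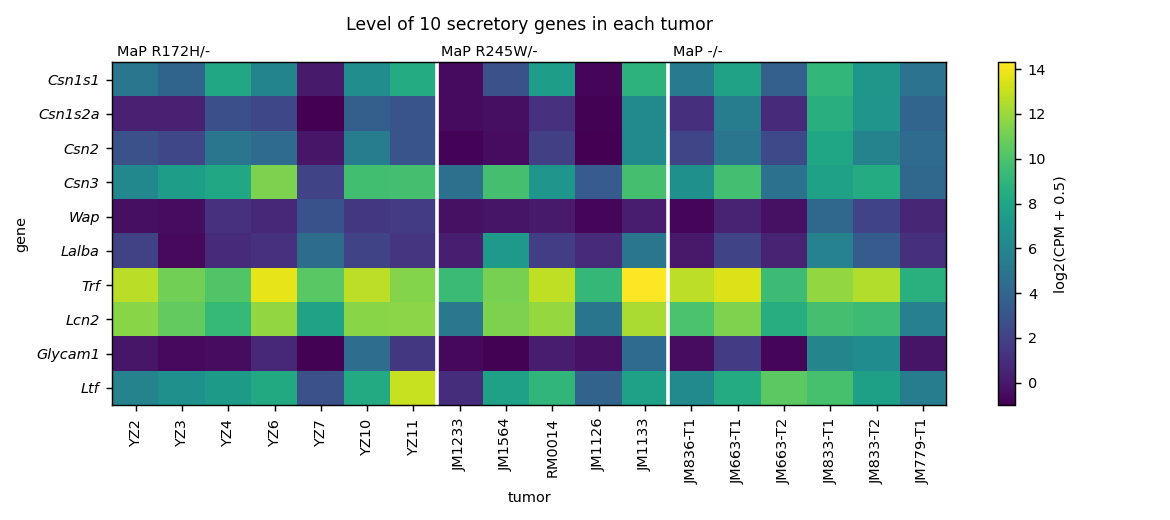
Level of each of the 10 genes in each of the 18 tumors as log2(CPM + 0.5), with the groups separated by white lines. Trf and Lcn2 are bright in most tumors, and the columns of YZ7, JM1233 and JM1126 are dark across the casein rows.

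Csn1s1 encodes the main alpha-S1 casein. In MaP R172H/- tumors its lowest level was 0.592 CPM (YZ7), its median 58.9 CPM and its highest 342 CPM (YZ11). MaP R245W/- tumors had 0.177 CPM in JM1233, 6.48 in JM1564, 182 in RM0014, 0.0957 in JM1126 and 483 in JM1133. In MaP -/- tumors it ran from 12.5 CPM (JM663-T2) through a median of 88.8 to 562 CPM (JM833-T1). All groups overlapped, and the tumors at or below 1 CPM were YZ7, JM1233 and JM1126.

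Csn2, the beta casein, was lower throughout. Its lowest level in MaP R172H/- tumors was 0.465 CPM (YZ7), the median 7.24 CPM and the highest 43.8 CPM (YZ10). In MaP R245W/- tumors it was at 0.0589 CPM in JM1233, 0.218 in JM1564, 3.17 in RM0014 and 80.8 in JM1133. JM1126 held 0 counts for it, which at that depth allows up to 0.0957 CPM (3 counts of the library, counting error alone). MaP -/- tumors ran from 4.01 CPM (JM836-T1) through a median of 25.6 to 255 CPM (JM833-T1). Every MaP -/- tumor was above 4 of the 5 MaP R245W/- tumors, and JM1133 was above 5 of the 6 MaP -/- tumors.

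Csn1s2a, an alpha-S2-like casein, had its highest levels in the 2 tumors of mouse JM833. Among MaP R172H/- tumors YZ7 held 0 counts, which allows up to 0.127 CPM, the median was 4.41 CPM and the highest 11.7 CPM (YZ10). Levels in MaP R245W/- tumors were 0.177 CPM in JM1233, 0.280 in JM1564, 1.77 in RM0014, 0.0319 in JM1126 and 76.0 in JM1133. MaP -/- tumors had a lowest level of 1.27 CPM (JM663-T2), a median of 29.9 CPM and a highest of 393 CPM (JM833-T1). Of the 6 MaP -/- tumors, 4 lay above every MaP R172H/- tumor, and JM836-T1 and JM663-T2 lay within their range.

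Csn3 encodes kappa casein, which caps the micelle surface. It was the casein with the highest level per kilobase in 15 of 18 tumors. In MaP R172H/- tumors it ran from 3.84 CPM (YZ7) through a median of 276 to 2516 CPM (YZ6). MaP R245W/- tumors had 24.7 CPM in JM1233, 866 in JM1564, 129 in RM0014, 9.92 in JM1126 and 898 in JM1133. Among MaP -/- tumors it ran from 17.6 CPM (JM779-T1) through a median of 161 to 832.8 CPM (JM663-T1). JM1564 held the fourth highest Csn3 level of the series and yet little of the other caseins.

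The make-up of casein transcripts differed from tumor to tumor. Per length, Csn3 made up a median of 79.6% of the 4 caseins in MaP R172H/- tumors (range 49.0 to 97.0%). In MaP R245W/- tumors the median was 98.2% (43.0 to 99.3%), and in MaP -/- tumors 54.0% (14.4 to 73.8%). The first of these medians is the value of YZ7, which held 116 casein counts, and the second that of JM1233, which held 854, and JM1126 held 315. Csn1s2a made up at most 1.73% in MaP R172H/- tumors and 6.99% in MaP R245W/- tumors. In MaP -/- tumors its share was 36.0% in JM833-T1, 25.4% in JM779-T1 and 24.9% in JM833-T2, and 1.58 to 5.53% in the other 3. JM833-T1 and JM833-T2 came from the same mouse. JM833-T1 was the only tumor in which Csn1s2a led, and Csn1s1 led in RM0014 and JM779-T1. The casein total of JM779-T1 was 80.5 CPM from 2470 counts, so its shares rest on fewer counts than those of JM833-T1 (47520 counts).

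**Figure D2:**
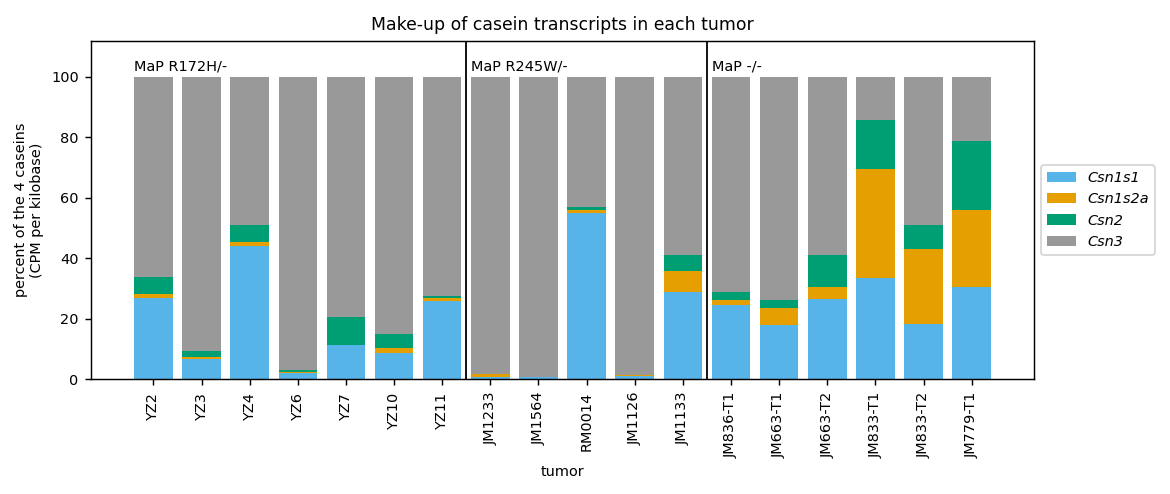
Share of Csn1s1, Csn1s2a, Csn2 and Csn3 in the summed level of the 4 caseins (CPM per kilobase) in each tumor, as stacked bars in percent. The Csn3 segment reaches 99.3% in JM1564, and the Csn1s2a segment is largest in JM833-T1 (36.0%), JM779-T1 and JM833-T2.

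The remaining coding genes of the cluster were nearly silent. Csn1s2b, a casein neighbour of Csn1s2a, had a median of 0.0763 CPM, a highest level of 1.17 CPM (YZ10), and was too low to be tested. Prr27, Odam and Fdcsp, which lie between Csn1s2b and Csn3 and were named after their values were seen, reached at most 0.292 CPM (YZ10), 0.878 CPM and 1.24 CPM (both JM833-T2).

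Wap and Lalba, whose products belong to full lactation, were low in most tumors. Wap was at or above 1 CPM in 8 of 18 tumors. Its lowest level in MaP R172H/- tumors was 0.218 CPM (YZ3), the median 1.77 CPM and the highest 6.84 CPM (YZ7). Levels in MaP R245W/- tumors were 0.295 CPM in JM1233, 0.405 in JM1564, 0.571 in RM0014, 0.0957 in JM1126 and 0.612 in JM1133. The range in MaP -/- tumors was from 0.1103 CPM (JM836-T1) through a median of 0.954 to 16.6 CPM (JM833-T1). All MaP R245W/- tumors were below 1 CPM, and they overlapped both other groups at the low end.

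Lalba showed a different order of tumors. MaP R172H/- tumors ran from 0.145 CPM (YZ3) through a median of 2.06 to 20.6 CPM (YZ7). In MaP R245W/- tumors it was at 0.736 CPM in JM1233, 153 in JM1564, 2.88 in RM0014, 1.31 in JM1126 and 31.8 in JM1133. In the MaP -/- group it ran from 0.551 CPM (JM836-T1) through a median of 2.76 to 53.8 CPM (JM833-T1). YZ7, which had the lowest summed caseins of the 18 tumors (4.90 CPM), had the highest Wap and Lalba levels of its group. JM1564 had the highest Lalba level of all tumors and a Wap level of 0.405 CPM.

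Trf and Lcn2 were abundant in nearly every tumor. Trf was lowest at 1153 CPM (YZ4) in MaP R172H/- tumors, with a median of 2819 and a highest level of 13620 CPM (YZ6). MaP R245W/- tumors had 691 CPM in JM1233, 2271 in JM1564, 7400 in RM0014, 585 in JM1126 and 20170 in JM1133. MaP -/- tumors ran from 418 CPM (JM779-T1) through a median of 4794 to 11550 CPM (JM663-T1). The groups covered nearly the same range.

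Lcn2 in MaP R172H/- tumors was lowest at 228 CPM (YZ7), with a median of 3034 and a highest level of 3580 CPM (YZ6). In MaP R245W/- tumors it was at 34.7 CPM in JM1233, 2457 in JM1564, 3833 in RM0014, 30.6 in JM1126 and 5335 in JM1133. Among MaP -/- tumors it ran from 50.3 CPM (JM779-T1) through a median of 791 to 2599 CPM (JM663-T1). JM1126, which the study classed by histology as a nonmetaplastic sarcoma, was lowest. Its Epcam (425 CPM) and Krt8 (1276 CPM) were within the range of the other tumors.

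Ltf in MaP R172H/- tumors ran from 6.55 CPM (YZ7) through a median of 162 to 8285 CPM (YZ11). The next highest MaP R172H/- tumor, YZ10, had 330 CPM. Levels in MaP R245W/- tumors were 1.47 CPM in JM1233, 214 in JM1564, 542 in RM0014, 14.2 in JM1126 and 218 in JM1133. The range in MaP -/- tumors was from 41.9 CPM (JM779-T1) through a median of 272 to 1372 CPM (JM663-T2). YZ11 alone thus set the MaP R172H/- mean.

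Glycam1 was at or above 1 CPM in 7 tumors. It ran from 0.0423 CPM (YZ7) through a median of 0.441 to 21.96 CPM (YZ10) in MaP R172H/- tumors. MaP R245W/- tumors had 0.118 CPM in JM1233, 0.0311 in JM1564, 0.629 in RM0014, 0.351 in JM1126 and 19.8 in JM1133. In MaP -/- tumors the lowest level was 0.0976 CPM (JM663-T2), the median 1.64 CPM and the highest 85.4 CPM (JM833-T2). The 2 tumors of mouse JM833 had the highest levels of the series, and their B cell and lymph node markers are given with the relations between genes.

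**Figure D3:**
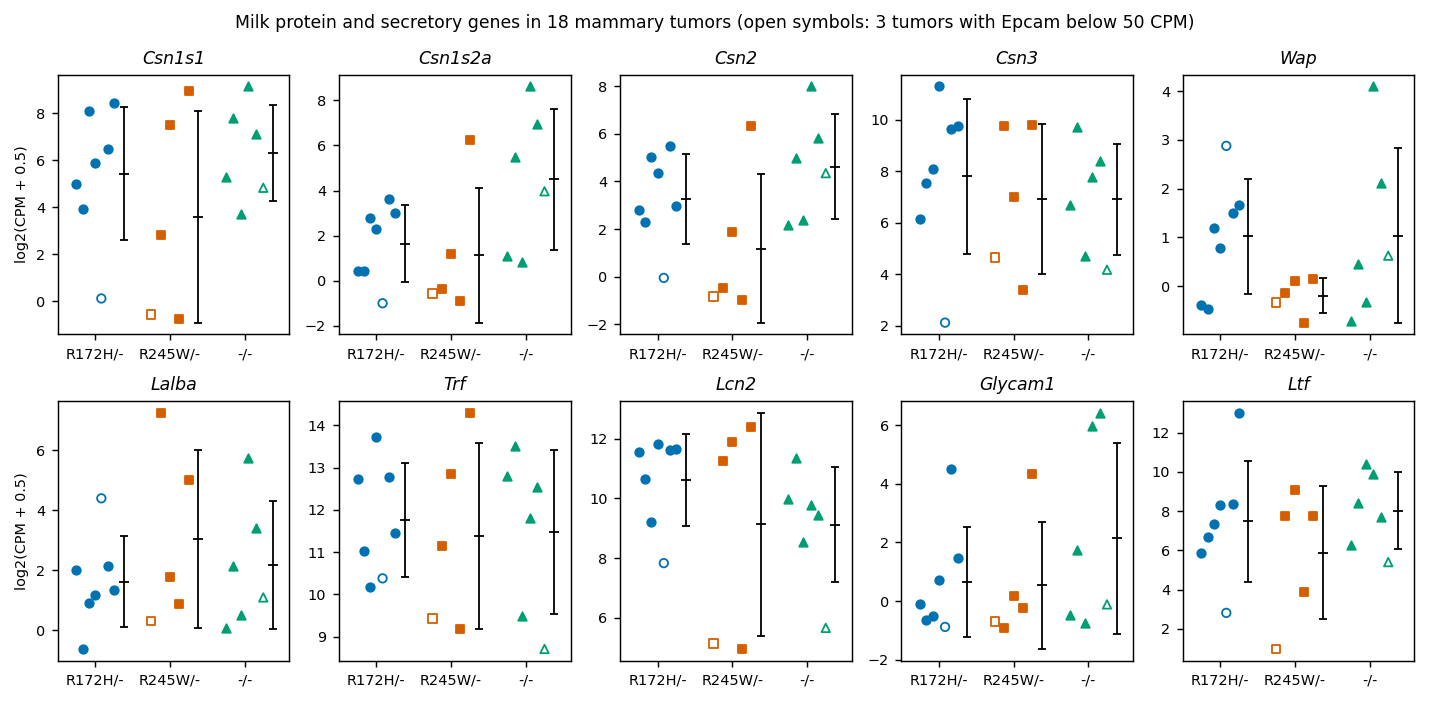
Each point is 1 tumor, as log2(CPM + 0.5) on an axis of its own for each gene. The groups stand side by side, black bars give mean and SD, and open symbols mark YZ7, JM1233 and JM779-T1, whose Epcam lay below 50 CPM. All 3 groups overlap for each of the 10 genes.

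Do the p53 mutant tumors differ from the p53-null tumors, and from each other, in these genes? None of the 10 was called in any of the 3 comparisons. A gene was called at a Benjamini-Hochberg FDR below 0.05 with an absolute log2 fold change above 2 in edgeR's quasi-likelihood test over all genes kept by the filter on low counts. All 10 genes passed that filter in each comparison. Between MaP R172H/- and MaP -/- tumors, 0 of 10 were called, where 1.37% of 20954 genes were. Between MaP R245W/- and MaP -/- tumors, 0 of 10 were called, where 0% of 21452 genes were (206 genes with DESeq2). Between MaP R172H/- and MaP R245W/- tumors, 0 of 10 were called, where 2.34% of 22481 genes were. At an unadjusted p below 0.05 the members numbered 1, 1 and 2 of 10, against 24.7, 11.8 and 25.9% of genes tested. The DESeq2 Wald test called 1, 0 and 0 members, and 905, 206 and 1164 of all genes. The 2 comparisons with MaP -/- tumors share those 6 tumors.

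Csn1s2a came nearest to a call. MaP R172H/- tumors averaged 4.51 ± 4.30 CPM (SD, n = 7), and MaP -/- tumors averaged 96.5 ± 152 CPM (SD, n = 6). That gave a log2 fold change of -4.45 (standard error 1.33, 95% confidence interval -7.30 to -1.60, edgeR FDR = 0.0545). Left without JM833-T1 it was -3.08, and it was called without JM836-T1 (-4.70, edgeR FDR = 0.0452) and without JM663-T2 (-4.71, edgeR FDR = 0.0472). The DESeq2 Wald test also called it (-4.41, DESeq2 adjusted p = 0.00247), as did edgeR with an epithelial covariate (-5.57, edgeR FDR = 0.0478). It was not called with tumors of 1 mouse summed (-4.09, edgeR FDR = 0.0895), which counts 4 MaP -/- mice in place of 6 tumors, nor in 1 fit of all 18 tumors (-4.48, edgeR FDR = 0.0995). Without any other single tumor its edgeR FDR lay above 0.05. Against MaP -/- tumors, MaP R245W/- tumors gave -2.69 (standard error 1.89, edgeR FDR = 0.585), with -7.43 without JM1133 and -1.32 without JM833-T1.

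Wap reached an unadjusted p below 0.05, and no more, between MaP R245W/- and MaP -/- tumors, with means of 0.396 ± 0.211 (SD, n = 5) and 3.79 ± 6.43 CPM (SD, n = 6). The log2 fold change was -3.30 (standard error 1.18, edgeR FDR = 0.362), and -1.68 without JM833-T1. Between the mutants, Wap gave 2.47 in MaP R172H/- over MaP R245W/- tumors (standard error 1.09, edgeR FDR = 0.164), and Lalba gave -2.96 (standard error 1.35, edgeR FDR = 0.173). Between the mutants Lalba was at -0.92 without JM1564, and without YZ7, JM1233 and JM779-T1 it was called at -4.50 (edgeR FDR = 0.0449, a setting chosen after the data were seen).

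Lcn2 and Csn3 had higher means in both mutant groups than in MaP -/- tumors, without passing the test. MaP R245W/- tumors gave log2 fold changes of 1.29 for Lcn2 (edgeR FDR = 0.678) and 0.55 for Csn3 (edgeR FDR = 0.868). Between the mutants Lcn2 was at -0.12 (edgeR FDR = 0.957). In MaP R172H/- tumors Lcn2 averaged 2198 ± 1375 CPM (SD, n = 7) against 934 ± 887 CPM (SD, n = 6) in MaP -/- tumors. Its log2 fold change was 1.22 (95% confidence interval -0.36 to 2.79, edgeR FDR = 0.326). Lcn2 was at 0.49 with the epithelial covariate and at 1.84 without JM663-T1, and was called in neither. Csn3 averaged 675 ± 882 against 256 ± 308 CPM, a log2 fold change of 1.39 (95% confidence interval -1.005 to 3.78, edgeR FDR = 0.469). It was 0.50 without YZ6, 2.23 without JM663-T1 and -0.23 with the epithelial covariate, none of them called. Trf, at 4959 ± 4518 and 4905 ± 4237 CPM, gave 0.0014 with a 95% confidence interval of -1.60 to 1.61 (edgeR FDR = 0.999). Ltf gave 1.36 (edgeR FDR = 0.563), and -1.65 without YZ11. The median log2 fold change of the 10 genes was -0.68 in MaP R172H/- and -0.86 in MaP R245W/- against MaP -/- tumors, and -0.15 between the mutants. Over all genes tested these medians were 0.00, 0.02 and 0.00 in the same order.

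The width of these intervals reflects the spread between tumors. Standard errors of the 10 genes ran from 0.73 to 1.93 on the log2 scale, and the median over all genes was 0.31, 0.36 and 0.36 in the 3 comparisons. In edgeR's biological coefficient of variation, a measure of spread between tumors of 1 group, the 10 genes lay at 0.846 to 1.77, between the 90.7th and 99.8th percentiles of the genes tested. In 26 of 30 intervals, 0 was inside. The 26 do not show that the groups are alike.

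**Figure D4:**
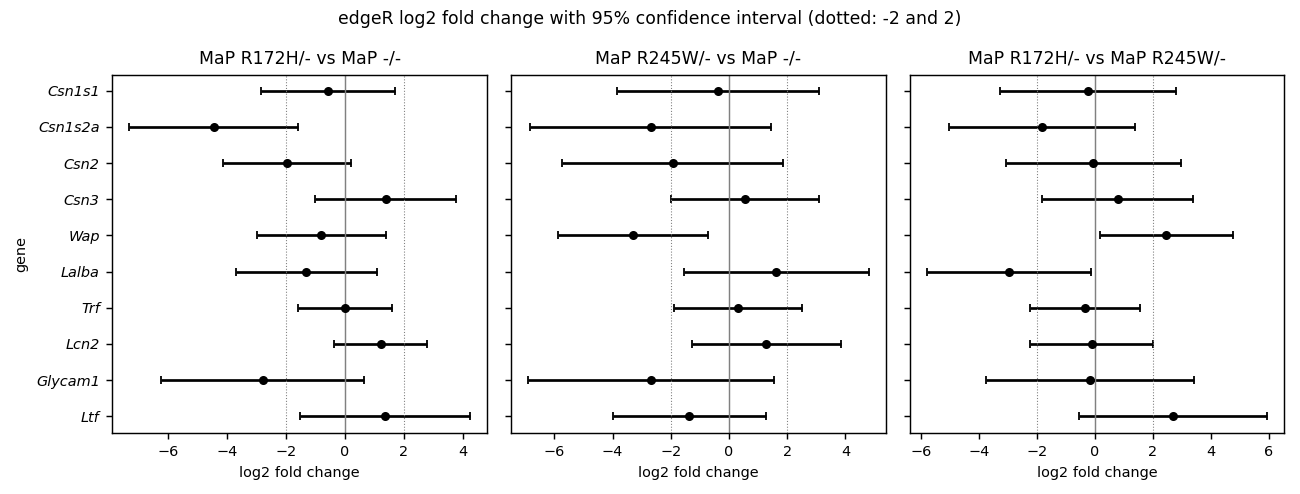
edgeR log2 fold changes (points) with 95% confidence intervals (bars) for the 10 genes in the 3 comparisons. Dotted lines stand at -2 and 2, and most intervals cross 0, with Csn1s2a in MaP R172H/- against MaP -/- tumors at -4.45.

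Tumors of 1 mouse differed widely as well. In mouse JM663, 9 of 10 genes were higher in the T1 tumor than in the T2 tumor. Csn3 was 832.8 against 25.3 CPM there, Trf 11550 against 725 CPM and Csn1s1 223 against 12.5 CPM, while Ltf was 337 against 1372 CPM. In mouse JM833, 7 of 10 genes were higher in T1, Csn1s2a at 393 against 123 CPM. Csn3, Trf and Glycam1 were higher in T2. The median absolute log2 ratio between tumors of 1 mouse was 2.71 in mouse JM663 and 1.83 in mouse JM833.

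Across the 18 tumors the 3 calcium-sensitive caseins and Glycam1 ranked tumors alike. Spearman's rho was 0.92 between Csn1s2a and Csn2, 0.85 between Csn1s1 and Csn1s2a, and 0.82 between Csn1s1 and Csn2. Glycam1 was at 0.84 with Csn1s2a, within the range of these 3 values, and at 0.78 with Csn2 and 0.75 with Csn1s1, below it. Between Csn1s1 and Csn3 rho was 0.65. Csn3 followed Lcn2 (0.76) and Trf (0.68), and Trf followed Lcn2 (0.86). Wap followed Lcn2 (0.12) and Trf (0.14) least. These values are descriptions over 18 tumors, of which 4 come from 2 mice, and all share the 3 tumors low in luminal genes.

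Upstream of the milk genes lie the prolactin receptor and its pathway. A list of 18 genes of prolactin, Jak2 and Stat5a signaling was examined. Prlr itself was at 1.61 CPM in YZ7, 3.25 in JM1126, 7.30 in JM1233, 9.29 in JM779-T1 and 17.2 in JM663-T2, and between 45.8 and 273 CPM (YZ4) in the other 13. Its fold change between groups did not pass the test in any comparison (edgeR FDR of 0.584, 0.768 and 0.350). Elf5 was at 2.04 CPM in JM1126 and 6.94 in JM779-T1 and reached 196 CPM in JM1564, the tumor highest in Lalba. Stat5a lay between 15.2 CPM (JM1233) and 86.3 CPM (JM1133), and Cish, a feedback target of Stat5, between 2.16 and 23.5 CPM. Socs2, another feedback target, ran from 16.5 CPM (JM779-T1) to 421 CPM (JM1133). Of the 18, 1 gene was called in MaP R172H/- against MaP -/- tumors, where 1.37% of all genes were. None of 17 tested was called in MaP R245W/- against MaP -/- tumors, where 0% of all genes were. At an unadjusted p below 0.05 there were 0 of 17, against 11.8% of all genes. DESeq2 called 0 there, and 206 of all genes. The gene called was Tnfsf11, which encodes RANKL, a paracrine factor of alveolar growth, at 0.348 against 4.33 CPM (log2 fold change -3.65, edgeR FDR = 0.0121). It was the 1 gene of 18 called between the mutants (-3.48, edgeR FDR = 0.0332), where 2.34% of all genes were, but was at -1.64 without JM1126 (edgeR FDR = 0.258). Leaving out each tumor in turn, a check on list genes added after the data were seen, kept the first of these calls in 13 of 13 fits and the second in 11 of 18. The median log2 fold change of the list was -0.03, -0.08 and -0.26, against 0.00, 0.02 and 0.00 over all genes.

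A second list held 34 genes of milk fat, transport and the secretory epithelium, 31 of which could be tested in each comparison. In MaP R172H/- against MaP -/- tumors 1 of 31 was called, where 1.37% of all genes were, and 0 in the other comparisons, where 0 and 2.34% were. At an unadjusted p below 0.05 those held 6 and 3 of 31, against 11.8 and 25.9% of all genes. It was Atp2b2, the calcium pump that supplies milk calcium, at 0.293 against 23.4 CPM (log2 fold change -6.33, edgeR FDR = 0.0314). That call rests on JM779-T1, which had 137 CPM. The other 5 MaP -/- tumors averaged 0.577 ± 0.372 CPM (SD, n = 5), and without JM779-T1 the log2 fold change was -0.99 (edgeR FDR = 0.284). Btn1a1, the butyrophilin of the milk fat globule, ran from 1.01 CPM (YZ2) to 138 CPM (YZ11), and was at 113 CPM in JM833-T1. Xdh, its partner in fat secretion, lay between 47.8 CPM (YZ7) and 441 CPM (JM833-T1), and Mfge8, a globule protein, between 184 and 2605 CPM. Wfdc18, a secreted relative of Wap, was at 7.84 CPM in JM1233, 9.13 in YZ7, 11.4 in JM779-T1 and 13.1 in JM1126, and between 96.1 and 2570 CPM in the others. Spp1 (osteopontin) was highest in JM1126, the tumor lowest in Lcn2, at 9518 CPM. None of these 5 passed the test. DESeq2 called 3, 2 and 0 genes of the list, where it called 905, 206 and 1164 of all genes. They were Lao1 and Cd36 in both comparisons with MaP -/- tumors and Lpl in the first, and not Atp2b2. Cd36 (1017 CPM), Lpl (1172 CPM) and Lao1 (11.1 CPM) were highest in JM833-T1. The medians of the list were 0.02, -0.18 and 0.00.

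The third list held 19 genes of involution and the acute-phase response, all tested. In MaP R172H/- against MaP -/- tumors 3 of 19 were called lower, against 1.05% of all genes, namely the cytokines Il6 (log2 fold change -3.21, edgeR FDR = 0.00807) and Osm (-2.08, edgeR FDR = 0.0110) and the protease Mmp3 (-2.72, edgeR FDR = 0.0143). Between the mutants Il6, Osm and the lysosomal protease Ctsl were called lower in MaP R172H/- tumors, where 2.34% of all genes were called in either direction. None was called in MaP R245W/- against MaP -/- tumors, with 2 of 19 at an unadjusted p below 0.05 against 11.8% of all genes. Of the first 3 calls, that of Il6 was kept whichever tumor was left out, while Mmp3 was at -1.78 without JM663-T2 and Osm at -1.78 without JM779-T1. Between the mutants no call was kept without JM1126, where Il6 was at -1.62, Osm at -1.37 and Ctsl at -1.02. The medians were -0.27 in MaP R172H/- and -0.15 in MaP R245W/- against MaP -/- tumors, and 0.13 between the mutants. Stat3, which drives involution, lay between 171 and 812 CPM and did not pass the test. The acute-phase genes Lbp, Cd14 and C3 did not pass either. DESeq2 called 677, 148 and 747 of all genes lower, and 4, 0 and 3 genes of this list. Those added to edgeR's calls were Orm1 in MaP R172H/- against MaP -/- tumors and no gene elsewhere.

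Summed caseins were set against lists and single genes over 16 mice, with tumors of 1 mouse averaged and levels as log2(CPM + 0.5). Being a sum over chosen members, they are described without a test. With Prlr, Pearson's r was 0.88 and Spearman's rho 0.72, and r was 0.86 within the 7 MaP R172H/- mice and 0.89 after group means were subtracted. Without the 2 mice farthest from the median of Prlr, r was 0.73. With Elf5, r was 0.69 and rho 0.72. The mean of the luminal epithelial list fell into 2 clusters, with 3 mice between 2.49 and 3.37 and 13 between 6.41 and 8.88, so no pooled value is given for it. Among the 13, r with summed caseins was 0.32 and rho 0.35. Without its 2 farthest mice this r was 0.50. In the same 13 mice, r with Prlr was 0.77 (rho 0.48) and with Elf5 0.84 (rho 0.62), and JM1126, low in Prlr, Elf5 and caseins, was farthest from the median of each. Without the 2 farthest mice these fell to 0.46 and 0.60, and within the 6 MaP R172H/- mice of the cluster they were 0.28 and 0.43, so the values over 13 mice rest largely on JM1126 and on 1 more mouse each. With Wap, r was 0.15 over 16 mice and rho 0.45, and r was 0.64 without mice JM833 and YZ7. Among the 13 mice, r with Wap was 0.62 and rho 0.80.

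Lcn2 was related to the epithelial list within the same 13 mice with r = 0.55 (permutation p = 0.0615, adjusted 0.0820) and rho = 0.74 (permutation p = 0.00483, adjusted 0.0193). Adjustment was by Benjamini-Hochberg over the 8 relations computed. Without the 2 mice farthest from the median of the list, r was 0.65. Within the 6 MaP R172H/- mice of that cluster r was 0.25 (exact permutation p = 0.543). With Ltf, Lcn2 gave r = 0.74 (permutation p = 0.00087, adjusted 0.00348) and rho = 0.66 (permutation p = 0.00645, adjusted 0.0129) over 16 mice. There r was 0.68 without the 2 farthest mice, 0.68 within the 7 MaP R172H/- mice (exact permutation p = 0.102) and 0.77 after group means were subtracted. Without the 3 tumors low in Epcam this fell to 0.56 (permutation p = 0.0756, adjusted 0.0864), and to 0.0358 once mice YZ11 and JM1126 were also left out, so the relation rests on few mice.

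Both Lcn2 and Ltf are neutrophil granule proteins, so a list of 15 neutrophil genes was set beside them. Lcn2 gave r = -0.35 with the list (permutation p = 0.189, adjusted 0.216) and rho = -0.13 (permutation p = 0.633, adjusted 0.633) over 16 mice, and r = -0.12 without the 2 farthest. Within the 7 MaP R172H/- mice r had the opposite sign, 0.71 (exact permutation p = 0.0714), and it was 0.13 in the 6 of them that remain without YZ7 (exact permutation p = 0.742). Over the 13 mice left without the 3 tumors low in Epcam, r was -0.67 (permutation p = 0.0127, adjusted 0.0340), with rho = -0.26 (permutation p = 0.383, adjusted 0.383), and r was -0.18 without the mice of JM1126 and JM663, so that value rests on them. JM1126 had the lowest Lcn2 (30.6 CPM) with the highest summed neutrophil level (3733 CPM, of which Mmp9, also a product of other cells, was 3131). JM663-T2 had the highest level of S100a9 (287 CPM) and S100a8 (207 CPM), a low Lcn2 (372 CPM) and the second highest Ltf (1372 CPM). YZ11, with an Ltf of 8285 CPM, had a summed neutrophil level of 84.2 CPM, with S100a9 at 13.3, Camp at 0.514 and Ngp at 0.608 CPM. The defining neutrophil gene Ly6g was at 0 counts in YZ6, YZ7 and JM1564, where Lcn2 was at 3580, 228 and 2457 CPM. Of the 15 genes, 12 could be tested in MaP R172H/- against MaP -/- tumors and 7 were called lower, against 1.05% of all genes. They were S100a8, S100a9, Camp, Ngp, Cd177, Retnlg and Chil3, with S100a9 at -3.66 (edgeR FDR = 0.0117). Lcn2 gave 1.22 in the same comparison and was not called (edgeR FDR = 0.326). The calls of S100a9 and Retnlg, 2 of the 7, were kept whichever tumor was left out, and the other 5 were not called without JM663-T2. Between the mutants Mmp9 (-5.43, edgeR FDR = 0.0210) and Cd177 (-2.59, edgeR FDR = 0.0316) were called lower in MaP R172H/- tumors (2 of 14 tested, against 2.34% of all genes called), and neither without JM1126 (-1.50 and -1.79). None of 14 tested was called in MaP R245W/- against MaP -/- tumors, where 0% of all genes were. At an unadjusted p below 0.05 there were 0 of 14, against 11.8% of all genes. DESeq2 called 11, 0 and 3 of the list lower, where it called 677, 148 and 747 of all genes lower. Between the mutants the 3 were Il1r2, S100a9 and Cd177, not Mmp9. The medians of the list were -2.60 in MaP R172H/- and -1.26 in MaP R245W/- against MaP -/- tumors, and -1.41 between the mutants. The part of neutrophils in the Lcn2 and Ltf levels was not tested.

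**Figure D5:**
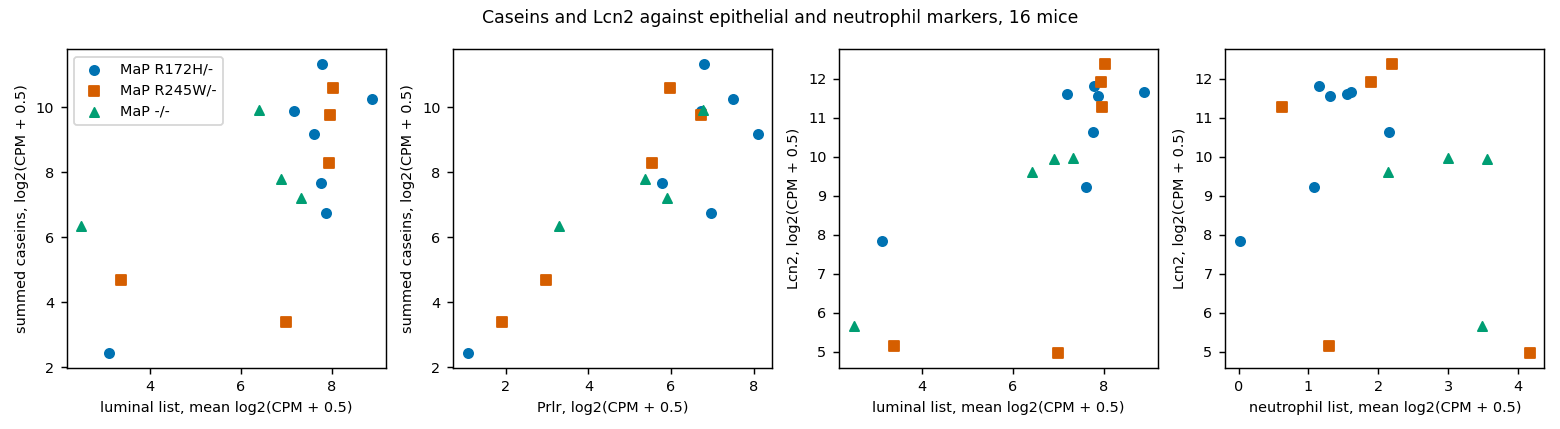
Summed caseins (left pair) and Lcn2 (right pair) against the luminal epithelial list, Prlr and the neutrophil list, with 1 point per mouse on log2(CPM + 0.5) axes. The 3 mice of YZ7, JM1233 and JM779-T1 sit apart at luminal means of 2.49 to 3.37, and the mouse of JM1126 joins them at low Lcn2 and low caseins.

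Glycam1 was set against 12 genes of B cells and lymph nodes. Over 16 mice r was 0.55 (permutation p = 0.0431, adjusted 0.0575) and rho 0.19 (permutation p = 0.486, adjusted 0.555), and r was -0.25 without mice JM833 and YZ11, so the relation rests on them. Within the 7 MaP R172H/- mice r was 0.29 (exact permutation p = 0.429). JM833-T2, highest in Glycam1, had a summed B cell and lymph node level of 626 CPM with Cr2 at 190 CPM. Chst4, a sulfotransferase of high endothelial venules, was at 1.69 CPM there and at 0 counts in 15 of 18 tumors. YZ10 and JM1133 were among those 15 and had 21.96 and 19.8 CPM of Glycam1, and JM1133 had the lowest summed level of the list in the MaP R245W/- group, 3.40 CPM. None of the 12 genes was at 0 counts in JM833-T2, and Cr2 was its most abundant gene. None was called in any comparison by edgeR. At an unadjusted p below 0.05 there were 6 of 10, 7 of 9 and 2 of 10 tested, where 24.7, 11.8 and 25.9% of all genes were. DESeq2 called Cxcl13 lower in MaP R172H/- against MaP -/- tumors, where it called 677 of all genes lower. The part of lymph node tissue in the Glycam1 level of mouse JM833 was not tested.

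JM833-T1, highest in Csn1s1, Csn1s2a, Csn2 and Wap, was also highest in adipocyte genes, with a summed level of 6923 CPM for 9 genes against a median of 92.8 CPM in MaP -/- tumors. Car3 (2200 CPM), Fabp4 (1890 CPM) and Adipoq (423 CPM) were highest there. Epcam was at 284 CPM in the same tumor. The part of fat pad or of adjoining gland in its milk gene levels was not tested. Of the basal epithelial list, Krt5 was at 48.9 CPM and Krt14 at 47.6 CPM in JM833-T1, and Krt5 peaked at 444 CPM in YZ4. JM1126, low in all 4 caseins, had the highest summed fibroblast level (33320 CPM for 8 genes), and JM1233 had the highest macrophage (8194 CPM for 8 genes) and skeletal muscle (1140 CPM for 8 genes) levels. The part of these cells in the low milk gene levels of those tumors was not tested. Between groups, edgeR called no luminal or basal epithelial gene, and DESeq2 called Cldn3, Oxtr and Krt17 higher in MaP R172H/- against MaP -/- tumors. DESeq2 also called Oxtr, Krt17 and Krt5 higher between the mutants. At an unadjusted p below 0.05 there were 2, 2 and 0 of 15 luminal and 6, 2 and 4 of 9 basal genes, where 24.7, 11.8 and 25.9% of all genes were. Luminal genes had medians of 1.12, 0.82 and 0.31 and basal genes of 2.48, -0.23 and 2.04 in MaP R172H/- and MaP R245W/- against MaP -/- tumors and between the mutants. The macrophage gene Mrc1 (-2.03, edgeR FDR = 0.0236) and the fibroblast gene Pdgfra (-2.49, edgeR FDR = 0.0265) were called lower in MaP R172H/- against MaP -/- tumors. Each was the 1 gene called of a list of 8, where 1.05% of all genes were called lower. Lyz2 (-2.17, edgeR FDR = 0.0144), Lum (-2.60, edgeR FDR = 0.0344) and 6 of 7 tested muscle genes were called lower between the mutants, where 2.34% of all genes were called in either direction. Lyz2 and Lum were again the 1 gene called of the macrophage and of the fibroblast list. Mrc1 (-1.68) and Pdgfra (-1.38) were not called without JM779-T1, Lyz2 (-1.36) without JM1233 or Lum (-1.47) without JM1126, and 4 of the 6 muscle genes were called whichever tumor was left out. No adipocyte gene was called by edgeR, with 2, 9 and 3 of 9 at an unadjusted p below 0.05 against the same shares of all genes, and DESeq2 called Fabp4 lower against MaP -/- tumors in both mutants, Lep lower in MaP R245W/- tumors, and Retn and Cfd higher in MaP R172H/- than in MaP R245W/- tumors. DESeq2 also called 7 muscle genes higher in MaP R245W/- against MaP -/- tumors and lower between the mutants, and Dcn, a fibroblast gene, lower in MaP R172H/- against MaP -/- tumors. Over all genes DESeq2 called 905, 206 and 1164 in the 3 comparisons.

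Apart from the caseins in the sum, the genes whose order over the 18 tumors was most like that of the summed caseins were Whamm (rho 0.91), Lncbate3 (0.89), Gca (0.88), Trim34a (0.88) and Scd1 (0.87), out of 22343 genes compared. Scd1, the stearoyl-CoA desaturase of fat synthesis, ran from 85.6 CPM (JM1233) to 4068 CPM (JM833-T1). Whamm lay between 8.79 and 23.1 CPM, a far narrower range than the caseins. Nearest to Lcn2 were Bnipl (0.94), Shf (0.92), the milk fat globule gene Mfge8 (0.92), Pglyrp1 (0.92) and Erich3 (0.92). Pglyrp1, a peptidoglycan-binding protein found in neutrophil granules and in epithelium, ran from 1.96 CPM (JM779-T1) to 157 CPM (JM1133). Erich3 ran from 0.228 CPM (JM779-T1) to 161 CPM (YZ11).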

How the data were processed

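Total RNA of 18 mammary tumors was depleted of ribosomal RNA and sequenced as stranded libraries. The authors aligned reads with STAR 2.7.10b to GRCm39 and deposited whole-number counts per gene from RSEM 1.3.3 with GENCODE M34, after FastQC 0.11.9. Gene positions came from GENCODE M39, which held 56620 of 57126 identifiers. Total counts ran from 23113578 to 37365062, and intervals for a count of 0 cover counting error only.

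Groups were taken from the labels. Counts were compared with edgeR 4.0.16 (R 4.3.3, limma 3.58.1), with TMM scaling, filterByExpr and the quasi-likelihood test, and Benjamini-Hochberg FDR over all genes tested. Each mutant was fitted with MaP -/- tumors, and the mutants were compared in a fit of all 18. No member was too low to test, so the planned exact permutation tests were not needed. Platform follows the MaP R172H/- genotype and was not a covariate. The study's DESeq2 served as an alternative (version 1.42.0). Tested on simulated data with log2 changes of 4, edgeR recovered 96 of 100 such genes for MaP R172H/- against MaP -/- tumors, 92 of 100 for MaP R245W/- against MaP -/- tumors and 93 of 100 between the mutants. At log2 changes of 2 it recovered 79, 56 and 64 of 100 in the same order. These rates were not split by the spread between tumors. The lowest member in spread was at the 90.7th percentile of the genes tested. The rates therefore do not tell how often such changes would be recovered for the members.

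Relations over mice used log2(CPM + 0.5) and 100000 permutations, exact within 7 mice. The members, the 11 gene lists and the tests were chosen with earlier results of these data known. Named genes were the 10 members, a set of pathway and marker genes, list genes that were called, and, caseins aside, the 5 genes nearest in rank order to the summed caseins and to Lcn2. The rest was done with scipy 1.17.1, pandas 2.3.3, numpy 2.4.6 and matplotlib 3.10.9 in Python 3.11.15.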

Additional observations from a re-analysis of the deposited data

Results flagged for a closer look

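Glycam1 in the MaP R245W/- group was marked because 1 of the 5 tumors stood far from the others. JM1133 had 19.8 CPM, and the next highest tumor, RM0014, had 0.629 CPM. On the log2(CPM + 0.5) scale this gap was 79.3% of the range of the group. In 30 groups of tumors examined (10 genes in 3 groups), chance alone marks about 1 in 20. JM1133 was also among the 5 highest tumors for 8 of the 10 genes.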

How the results depend on the processing

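Under alternatives other than leaving out a tumor, 223 log2 fold changes of the 10 genes kept their sign and their side of the threshold, 14 turned in sign and 3 became calls. Scaling by plain library totals moved no group mean of the 10 genes by more than its SD. That bound is loose, because SDs were often near or above the means, such as 96.5 ± 152 CPM for Csn1s2a in MaP -/- tumors. It therefore says little about the scaling. In MaP R172H/- against MaP -/- tumors, the epithelial covariate turned Csn3 to -0.23, Trf to -0.37 and Ltf to -2.04, and made Csn1s2a the 1 member called. With tumors of 1 mouse summed, 0 members were called. Trf, at 0.0014, also turned with DESeq2's size factors (-0.0023), 1 fit of all 18 tumors (-0.035) and without the 3 tumors low in Epcam (-0.077). The DESeq2 Wald test, which by default replaces outlying counts in groups of 7, turned Ltf to -1.48 and called 1 member, Csn1s2a. In MaP R245W/- against MaP -/- tumors the covariate turned Csn3 (-0.78), Lalba (-0.47), Trf (-0.70) and Lcn2 (-0.67). Between the mutants it turned Csn2 (0.32), Lcn2 (0.45) and Glycam1 (0.37), and 1 member, Lalba, was called without the 3 tumors low in Epcam, a setting chosen after the data were seen. Causes of these turns were not tested.

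Leaving out 1 tumor at a time gave 0 to 1 members called in MaP R172H/- against MaP -/- tumors and 0 in the other comparisons. In the first comparison log2 fold changes ran from -1.13 to 0.37 for Csn1s1, -1.46 to 0.82 for Wap and -2.52 to 0.47 for Lalba, each turning without JM833-T1. There Trf ran from -0.50 to 0.44, and Ltf from -1.65 to 1.998. In MaP R245W/- against MaP -/- tumors the range was -1.86 to 0.56 for Csn1s1, -0.025 to 1.39 for Csn3, -0.41 to 3.39 for Lalba and -0.87 to 0.74 for Trf. Between the mutants it was -0.80 to 1.26 for Csn1s1, -2.26 to 2.94 for Csn1s2a, -0.54 to 4.20 for Csn2 and -0.093 to 1.37 for Csn3. Trf ran from -0.84 to 0.83 there, Lcn2 from -0.43 to 0.44, Glycam1 from -2.60 to 3.68 and Ltf from -0.31 to 3.52. Without JM1133 the first 3 caseins turned.

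Over all genes, MaP R172H/- against MaP -/- tumors gave 287 calls, and 1051 at an absolute log2 fold change above 1, 1760 with no fold change threshold, 905 with DESeq2 and 491 with no filter on low counts. MaP R245W/- against MaP -/- tumors gave 0 calls, 206 with DESeq2, 2 in 1 fit of all 18 tumors, 1 without the 3 tumors low in Epcam, and 0 to 3 without 1 tumor (2 without JM1564 and 3 without JM779-T1). The mutants gave 526 calls, 1392 and 2114 at the looser thresholds, 1164 with DESeq2 and 315 in the 12 mutant tumors only.

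Without the 3 tumors low in Epcam, r fell to 0.56 for Lcn2 with Ltf. With the luminal list, for which no pooled value is given, r was 0.32 for summed caseins and 0.55 for Lcn2. For summed caseins it fell to 0.77 with Prlr, and rose to 0.84 with Elf5 and from 0.15 to 0.62 with Wap. It was -0.67 for Lcn2 with the neutrophil list (adjusted permutation p = 0.0340, rho -0.26), or -0.18 without the mice of JM1126 and JM663. With 18 tumors in place of 16 mice, r of Glycam1 with the B cell list was 0.62. No p is given for it, because tumors of the same mouse are not independent and both tumors of mouse JM833 were high in Glycam1. Over 16 mice r was 0.55 (adjusted permutation p = 0.0575). No paired analysis between groups was possible because the groups came from different mice. At 3 counts, the floor of these libraries was 0.0857 to 0.140 CPM, and Wap and Glycam1 were near it in several tumors.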
